A study of Homo sapiens with 6 samples.

Results

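The genes described here are 42 protein-coding genes of ribosome biogenesis and RNA polymerase I, out of 56637 gene symbols counted in each library. They were chosen by symbol as known parts of the pathway; the rule uses no measured value, but earlier results of these data were known when the members and the further lists were chosen. They fall into 4 groups: 11 genes of RNA polymerase I transcription and its nucleolar cofactors, 10 of the small subunit processome, 14 of large subunit assembly and 7 of the small nucleolar ribonucleoproteins (snoRNPs). RNA was sequenced from MM.1S, an established line grown from a human multiple myeloma, a cancer of plasma cells. The cells were kept in RPMI-1640 medium with fetal bovine serum and L-glutamine. They received by lentivirus a short hairpin RNA (shRNA) against KDM6B, which encodes a histone demethylase (the shKDM6B group, 3 libraries), or against luciferase, the control (the shLuc group, 3 libraries). Both groups were selected with puromycin, so the controls carry a hairpin vector and the selection as well. Libraries are called shLuc 1 to 3 and shKDM6B 1 to 3 by their replicate numbers. The labels describe 1 hairpin target per group, with neither a further KDM6B hairpin nor a rescue, so an effect of losing KDM6B and another effect of that hairpin cannot be told apart.

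Ribosomes are built in the nucleolus. RNA polymerase I transcribes the ribosomal DNA repeats into 1 long precursor RNA, the small subunit processome folds and cleaves its first part, large subunit factors assemble the remainder, and snoRNPs guide methylation and pseudouridylation of the RNA. Most of these factors are encoded by ordinary genes read by RNA polymerase II, and it is the messenger RNAs of those genes that were measured here; the precursor ribosomal RNA was not analysed. Plasma cells and myeloma cells secrete large amounts of protein, and MYC, a known driver of ribosome biogenesis genes, is often highly active in myeloma.

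Libraries held 7338393 to 8996159 counts in shLuc and 7952156 to 9848351 in shKDM6B, and the shKDM6B group was the deeper on average. KDM6B counts were 409, 505 and 437 across shLuc and 239, 270 and 348 across shKDM6B (log2 fold change of shKDM6B relative to shLuc -0.71, standard error (SE) 0.073, adjusted p = 7.72e-08), lower in every library of the knockdown. All 9 plasma cell markers were measured above the filter; CD38 (log2 fold change -0.45) and TNFRSF17 (-0.37) were lower in shKDM6B, PRDM1 was higher (0.15), and 6 did not pass. Of 5 tested markers of T cells, erythroid cells, monocytes and mature B cells 0 were higher and 3 lower. Several keratins, which are epithelial, were counted mainly in 3 libraries: KRT5 had 28, 4 and 0 counts in shLuc and 53, 110 and 0 in shKDM6B. KRT1 was at 0 throughout, whereas KRT10 had 390 to 469 counts in every library. Levels are given as CPM, a gene's count scaled to the total of its library after TMM normalization, edgeR's trimmed-mean scaling between libraries. Summed over 12 epithelial markers, CPM ran from 54.2 to 65.9 in shLuc and from 44.7 to 93.7 in shKDM6B, most of it KRT10. Without KRT10 the sums were 12.4, 2.94 and 3.3 CPM in shLuc and 35.9, 45.8 and 2.02 CPM in shKDM6B. Of 5 tested epithelial markers KRT5, KRT14 and KRT19 were higher (4.90, 7.63 and 5.40-fold) and KRT10 was lower (0.89-fold). The fifth, EPCAM, did not pass (0.56-fold, adjusted p = 0.0680), with 11, 12 and 20 counts in shLuc and 7, 5 and 13 in shKDM6B. Summed CPM of the T cell list ran from 8.1 to 10.2 in shLuc and from 5.14 to 6.56 in shKDM6B, and that of the erythroid list from 19.5 to 23.7 and from 10.5 to 13.2. The fibroblast list summed to 0.22 to 0.962 CPM in shLuc and 0.404 to 3.46 CPM in shKDM6B. Its COL1A2 had 1, 0 and 1 counts in shLuc and 6, 11 and 0 in shKDM6B. The part of any of these markers in the results below was not tested. Counts without the 3 libraries with the most KRT5 are given beside each gene group. That setting leaves shKDM6B 3 alone in its group, so a call lost there cannot be told apart from lost replication. The shares of all genes called under it are given below with the counts for all members together. Nothing in the labels says that the replicates were separate cultures, so each p-value weighs a difference against library-to-library spread that may be technical. In bulk RNA, a smaller share of cells and less RNA per cell cannot be told apart.

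Genes of ribosome biogenesis were more often higher than lower in shKDM6B, by small amounts. All 42 had enough counts to be tested (178 to 4610 per library). By edgeR's quasi-likelihood test, at a Benjamini-Hochberg adjusted p under 0.05 over all 13839 genes tested, 21 of the 42 passed, or 50% against 39.1% of all genes. Of these 19 were higher, 45.2% against 20.1% of all genes, and 2 were lower, POLR1D and UTP3, where 18.9% of all genes were lower. No member had under 0.03 counts per base of exon. At 0.03 to 0.1, 0.1 to 0.3 and 0.3 to 1 counts per base stood 4, 17 and 21 members. Of all genes at these densities 24.6%, 25.8% and 19.0% were higher, and 21.8%, 20.4% and 12.8% were lower. The 3 shKDM6B values lay wholly above the 3 shLuc values for 22 members (24.5% of all genes) and wholly below for 2 (23.9% of all genes). The median log2 fold change of the 42 was 0.11, against -0.005 over all genes, and it was 0.11 again with RRP1B, the member that rose most, left out. RRP1B apart, the 18 other members that rose did so by 1.09 to 1.34-fold, and 14 of the 19 by less than 1.2-fold. A total of 9 members, POLR1A, POLR1B, POLR1E, TCOF1, UTP15, RRP9, RRP12, WDR12 and RRP1B, passed in the same direction under all 16 other settings tried for single genes. Without the 3 libraries with the most KRT5 counts, 12 members were higher (28.6%, against 14.0% of all genes) and 1 lower (2.38% against 12.5%), and all 12 were among the 19. Without shLuc 2 alone 12 were higher (28.6% against 17.2%), and without shKDM6B 2 alone 11 were higher (26.2% against 16.2%) and 1 lower.

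**Figure D1:**
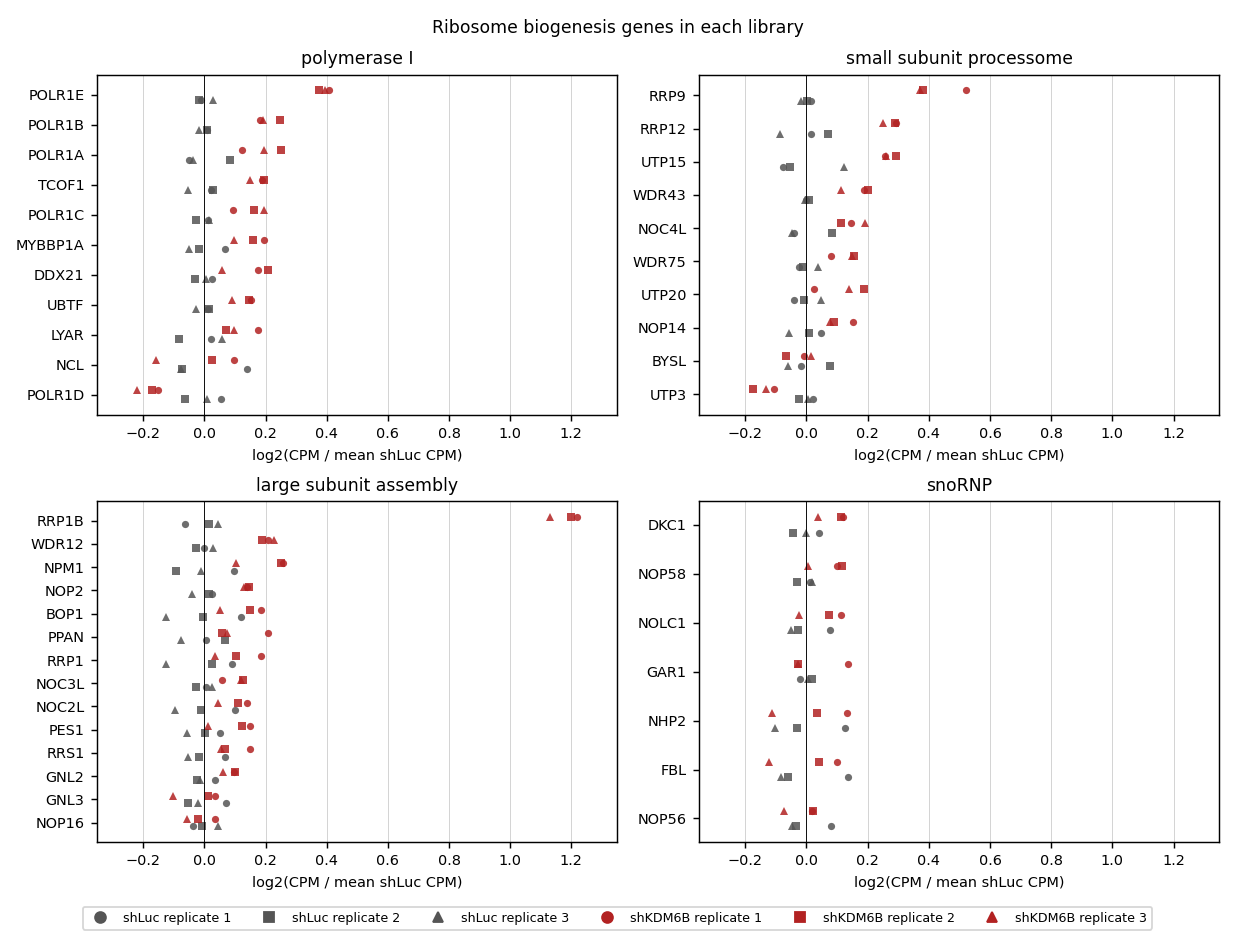
Each point is 1 library's CPM for 1 gene, as log2 of its ratio to the mean of the 3 shLuc libraries, in 4 panels by gene group; grey is shLuc, red is shKDM6B, and the symbol marks the replicate. RRP1B stands near 1.2 in all 3 shKDM6B libraries, most other red points lie between -0.2 and 0.4, and in the snoRNP panel red and grey points overlap for all 7 genes.

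**Figure D2:**
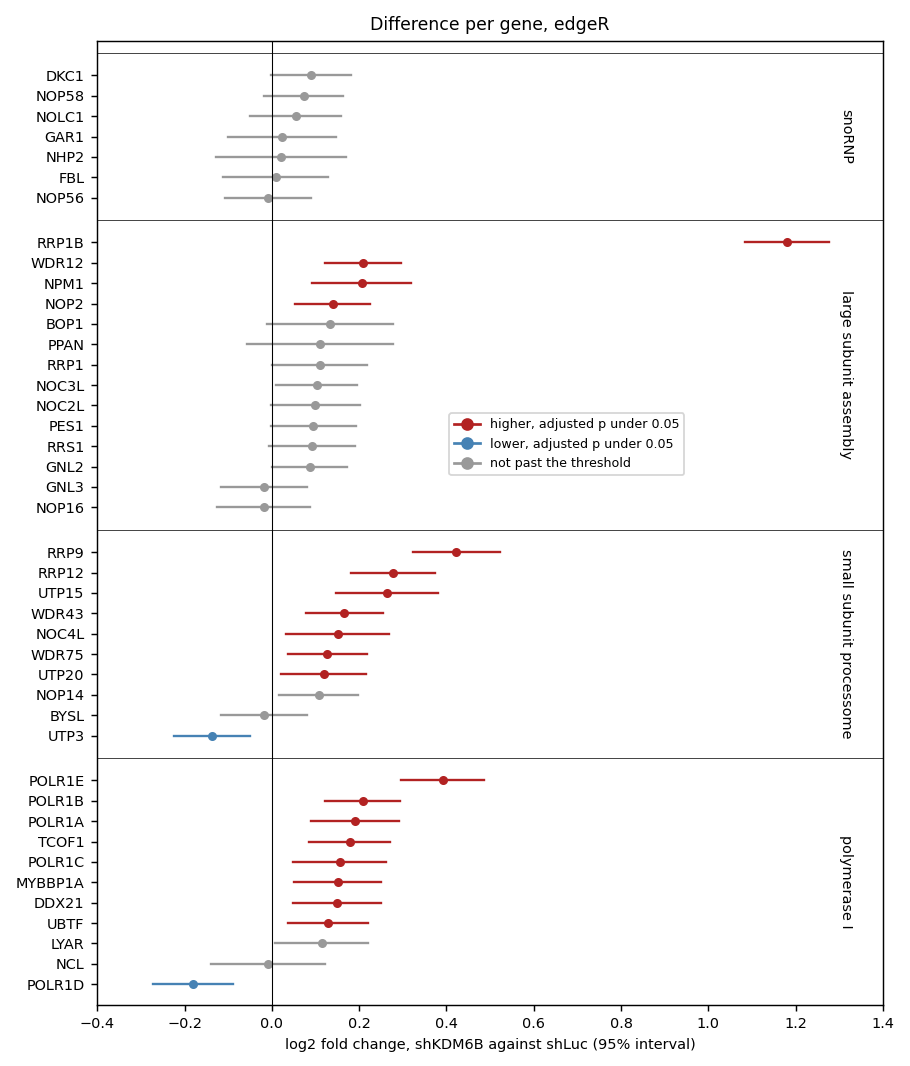
Points are log2 fold changes of shKDM6B against shLuc from edgeR with 95% intervals, for the 42 genes by group. Red marks the 19 genes past the threshold as higher, blue the 2 as lower, and grey the 21 not past it.

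The promoters are shown for what the members share beyond their function. RefSeq's table (GRCh38.p14, not the build of the count files) held 43 promoters, each 250 bases before to 50 after a start site, for 34 of the 42 genes; BOP1, NOLC1, NOP58, POLR1E, RRP12, RRP1B, RRS1 and TCOF1 were not matched. The E-box letters CACGTG, the sequence to which MYC and related factors are known to bind, read the same on both strands. They stood in 15 of the 43 promoters (34.9%), against 9.41% of 13671 promoters of tested genes and 7.26% of all 35116 promoters of the same length. In all 15 the match began within 70 bases before to 50 after the start, as in 49.1% of the matching promoters of tested genes. Below are windows of 70 bases before the start and 30 after it, 5′ to 3′ along the gene. In the first 6 the capitals mark the E-box, for 3 members that rose (RRP9, WDR43, UTP20) and 3 that did not pass (NOP14, FBL, PES1). In the last, of POLR1B, which rose and has no E-box in its table entries, they mark the reverse complement of CCGGAAG, a core of sites for ETS factors.
RRP9 (GRCh38.p14, chr3:51941875-51941974, minus strand): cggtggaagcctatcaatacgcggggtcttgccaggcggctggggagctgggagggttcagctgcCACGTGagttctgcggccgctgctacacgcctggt
WDR43 (GRCh38.p14, chr2:28894597-28894696, plus strand): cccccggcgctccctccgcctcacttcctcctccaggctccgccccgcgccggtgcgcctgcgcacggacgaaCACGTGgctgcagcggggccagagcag
UTP20 (GRCh38.p14, chr12:101280035-101280134, plus strand): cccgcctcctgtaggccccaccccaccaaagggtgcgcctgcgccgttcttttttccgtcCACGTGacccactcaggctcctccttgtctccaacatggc
NOP14 (GRCh38.p14, chr4:2963377-2963476, minus strand): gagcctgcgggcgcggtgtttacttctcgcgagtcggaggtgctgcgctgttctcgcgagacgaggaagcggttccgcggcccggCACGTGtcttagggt
FBL (GRCh38.p14, chr19:39846350-39846449, minus strand): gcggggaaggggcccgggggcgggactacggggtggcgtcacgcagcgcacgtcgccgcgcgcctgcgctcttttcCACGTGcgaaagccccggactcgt
PES1 (GRCh38.p14, chr22:30591881-30591980, minus strand): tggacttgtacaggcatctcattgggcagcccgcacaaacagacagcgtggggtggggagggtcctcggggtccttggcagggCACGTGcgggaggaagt
POLR1B (GRCh38.p14, chr2:112542395-112542494, plus strand): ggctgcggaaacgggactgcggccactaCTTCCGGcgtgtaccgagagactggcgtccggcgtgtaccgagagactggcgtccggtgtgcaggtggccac
An E-box stood in promoters of 6 of the 15 matched members that rose, of 9 of the 17 that did not pass and of 0 of the 2 that fell; the difference was not tested. Searched on both strands, CCGGAAG stood in 27.9% of member promoters against 16.8% for tested genes and 10.3% for all promoters. The CCAAT box stood in 27.9% against 34.7% and 34.6%, and the GC box letters GGGCGG in 74.4% against 65.5% and 45%. A match says only that these letters stand in the window.

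Of the 11 polymerase I genes, 8 rose (72.7%), 1 fell and 2 did not pass, with a median log2 fold change of 0.15. Of all genes tested, 20.1% rose and 18.9% fell. The 3 members that are subunits of this polymerase alone rose. Its other subunits of this kind, from a further list and grouped after their values were seen, did not move together. POLR1G was higher (log2 fold change 0.35, adjusted p = 0.00117), POLR1F was lower (-0.44, adjusted p = 4.49e-07) and POLR1H did not pass (-0.096, adjusted p = 0.514). POLR1E, which encodes a subunit of the heterodimer that aids initiation, had 70.7, 70.4 and 72.7 CPM in shLuc and 94.6, 92.4 and 93.7 CPM in shKDM6B (log2 fold change 0.39, SE 0.046, adjusted p = 4.52e-07; here and below in the order of libraries 1 to 3). The groups lay far apart, and the spread within each was under 3 CPM. POLR1A, the largest and catalytic subunit, had 247, 272 and 249.8 CPM in shLuc and 279, 305 and 294 CPM in shKDM6B (log2 fold change 0.19, SE 0.048, adjusted p = 0.00317). POLR1B, the second-largest subunit, which completes the active site, had 162, 162 and 159 CPM in shLuc and 183, 191 and 184 CPM in shKDM6B (log2 fold change 0.21, SE 0.042, adjusted p = 0.000363). In both genes every shKDM6B library was above every shLuc library. The partner subunits POLR1C and POLR1D, which RNA polymerases I and III share, differed in opposite directions. POLR1C had 61.2, 59.5 and 61.3 CPM in shLuc and 64.8, 67.9 and 69.5 CPM in shKDM6B (log2 fold change 0.15, SE 0.051, adjusted p = 0.0192). POLR1D had 174, 160.3 and 168 CPM in shLuc and 151, 149 and 144 CPM in shKDM6B (log2 fold change -0.18, SE 0.044, adjusted p = 0.00236), without overlap between groups. With sparse-gene scaling (TMM factors taken from genes under 0.03 counts per base of exon), POLR1D lost its call (log2 fold change -0.14, adjusted p = 0.154). POLR1C lost its call by DESeq2 (adjusted p = 0.182) and without shLuc 2, shKDM6B 2 or shKDM6B 3 (adjusted p = 0.0782, 0.0634 and 0.0842). Of its exon bases 18.2% are shared with other genes, so some of its counts may be theirs.

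Among the factors that act with the polymerase, the architectural factor UBTF, which coats active ribosomal DNA, had 335, 335 and 326 CPM in shLuc and 369, 367 and 354 CPM in shKDM6B (log2 fold change 0.13, SE 0.044, adjusted p = 0.0229). TCOF1, which encodes treacle, a nucleolar phosphoprotein that works with the polymerase, had 323, 325 and 307 CPM in shLuc and 363, 365 and 353 CPM in shKDM6B (log2 fold change 0.18, SE 0.045, adjusted p = 0.00277). The 2 genes rose by 1.09 and 1.13-fold, each without overlap between groups. MYBBP1A, a nucleolar protein of precursor RNA processing, had 456, 429.5 and 420.1 CPM in shLuc and 498, 486 and 465 CPM in shKDM6B (log2 fold change 0.15, SE 0.048, adjusted p = 0.0157). DDX21, a nucleolar RNA helicase, had 383, 369 and 378 CPM in shLuc and 426, 436 and 392 CPM in shKDM6B (log2 fold change 0.15, SE 0.048, adjusted p = 0.0174), with its lowest knockdown value in replicate 3. TCOF1 passed under every other setting. UBTF, MYBBP1A and DDX21 each lost their calls with sparse-gene scaling (adjusted p = 0.135, 0.112 and 0.10). Their log2 fold changes were then larger, 0.17, 0.20 and 0.19, as were the SEs, 0.092, 0.098 and 0.095. UBTF and DDX21 also lost them without the 3 libraries with the most KRT5 (adjusted p = 0.124 and 0.284). All 3 lost them without any one of shLuc 2, shLuc 3, shKDM6B 1 or shKDM6B 2. In that order the adjusted p of UBTF was 0.0805, 0.119, 0.0802 and 0.114. For MYBBP1A it was 0.0993, 0.107, 0.0770 and 0.0804, and for DDX21 0.117, 0.0530, 0.0658 and 0.147. LYAR, a nucleolar zinc finger protein of precursor RNA processing, had 73.3, 68.2 and 75.1 CPM in shLuc and 81.6, 75.9 and 77.3 CPM in shKDM6B and did not pass (log2 fold change 0.12, 95% interval 0.008 to 0.22, adjusted p = 0.0817), although its groups did not overlap. NCL, which encodes the abundant nucleolar protein nucleolin, had 538, 465 and 463 CPM in shLuc and 522, 497 and 438 CPM in shKDM6B (log2 fold change -0.009, 95% interval -0.14 to 0.12, adjusted p = 0.929). Its levels spread more within each group than between the group means. Without the 3 libraries with the most KRT5, 6 of the 11 genes were higher and 1 lower.

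Of the 10 small subunit processome genes, 7 rose, 1 fell and 2 did not pass, with a median log2 fold change of 0.14. Among all genes tested, 20.1% were higher and 18.9% lower. RRP9, a protein of the U3 snoRNP around which the processome forms, had 90.9, 90.2 and 88.9 CPM in shLuc and 129, 117 and 116 CPM in shKDM6B (log2 fold change 0.42, SE 0.048, adjusted p = 3.00e-07). RRP12, a repeat protein of pre-ribosome maturation and export, had 229, 238 and 213 CPM in shLuc and 278, 277 and 269 CPM in shKDM6B (log2 fold change 0.28, SE 0.046, adjusted p = 5.00e-05). These are the largest rises of the group, 1.34 and 1.21-fold, with all 3 knockdown libraries above all controls. UTP15, WDR43 and WDR75 belong to UtpA, the complex that binds the start of the precursor RNA. UTP15 had 55.9, 56.8 and 64.3 CPM in shLuc and 70.5, 72.2 and 70.6 CPM in shKDM6B (log2 fold change 0.26, SE 0.056, adjusted p = 0.000647). WDR43 had 170.1, 171 and 169.5 CPM in shLuc and 194, 196 and 184 CPM in shKDM6B (log2 fold change 0.17, SE 0.042, adjusted p = 0.00313), and its control values differed by under 2 CPM. WDR75 had 108, 109 and 112 CPM in shLuc and 116, 122 and 121 CPM in shKDM6B (log2 fold change 0.13, SE 0.044, adjusted p = 0.0240). All 3 rose without overlap, and WDR43 did not pass without the 3 libraries with the most KRT5 (adjusted p = 0.134). WDR75 did not pass by DESeq2 (adjusted p = 0.149), with upper-quartile scaling (adjusted p = 0.0508) or without shLuc 1, shLuc 2, shKDM6B 2 or shKDM6B 3 (adjusted p = 0.0823, 0.0921, 0.110 and 0.0697). Of the remaining UtpA genes, taken from a further list and grouped after their values were seen, HEATR1 was higher (log2 fold change 0.17, SE 0.046, adjusted p = 0.00476; 0.0589 without shKDM6B 2). UTP4 (log2 fold change 0.096, adjusted p = 0.102) and NOL11 (log2 fold change 0.024, adjusted p = 0.747) did not pass; UTP4 passed without shLuc 1 (adjusted p = 0.0389) and without shKDM6B 3 (adjusted p = 0.0384).

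UTP3, also called SAS10, a processome component that binds the growing particle, was the member that fell here. It had 131, 127 and 129.7 CPM in shLuc and 120.1, 115 and 118 CPM in shKDM6B (log2 fold change -0.14, SE 0.042, adjusted p = 0.0133), each knockdown value below each control value. Its call was lost with sparse-gene scaling (log2 fold change -0.10, adjusted p = 0.324), by DESeq2 (adjusted p = 0.113), without shKDM6B 2 (adjusted p = 0.0761) and without the 3 libraries with the most KRT5 (adjusted p = 0.167). UTP20, a very large scaffold protein, had 172, 175 and 182 CPM in shLuc and 179, 201 and 194 CPM in shKDM6B (log2 fold change 0.12, SE 0.047, adjusted p = 0.0485). It is the only member past the threshold whose groups overlapped: shKDM6B 1 lay below shLuc 3. It lost its call in 11 of the 16 settings, among them limma-voom and DESeq2 (adjusted p = 0.0504 and 0.132). Without shLuc 1, shLuc 2, shKDM6B 2 or shKDM6B 3 its adjusted p was 0.143, 0.157, 0.281 and 0.0988. NOC4L and NOP14 encode partners that bind each other. NOC4L had 49, 53.4 and 48.8 CPM in shLuc and 55.7, 54.5 and 57.6 CPM in shKDM6B (log2 fold change 0.15, SE 0.057, adjusted p = 0.0398), and lost its call in 10 of the 16 settings, DESeq2 among them (adjusted p = 0.249). Without shLuc 1, shLuc 3, shKDM6B 1, shKDM6B 2 or shKDM6B 3 its adjusted p was 0.117, 0.145, 0.0637, 0.0565 and 0.132. NOP14 had 181, 176 and 169 CPM in shLuc and 195, 187 and 185 CPM in shKDM6B (log2 fold change 0.11, 95% interval 0.016 to 0.20, adjusted p = 0.0570). It did not pass, though its groups did not overlap, and it passed without shLuc 1 (adjusted p = 0.0394) and without shKDM6B 3 (adjusted p = 0.0471). Its antisense gene NOP14-AS1 covers 17.1% of its exon bases and had 163 to 248 counts of its own per library. BYSL, a factor of late small subunit precursors, had 98.3, 105 and 95.4 CPM in shLuc and 99, 95.1 and 101 CPM in shKDM6B (log2 fold change -0.019, 95% interval -0.12 to 0.080, adjusted p = 0.789), with overlapping groups. Without the 3 libraries with the most KRT5, 3 of the 10 genes were higher and 0 lower.

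Of the 14 large subunit assembly genes, 4 rose, 0 fell and 10 did not pass, with a median log2 fold change of 0.11. The share that rose, 28.6%, was not far above the 20.1% of all genes, while 18.9% of all genes fell. RRP1B moved apart from the rest. It encodes a nucleolar protein related to yeast Rrp1, which works on the large subunit precursor, and is also known as a binding partner of chromatin factors. It had 176, 186 and 189.6 CPM in shLuc and 428, 422 and 402 CPM in shKDM6B (log2 fold change 1.18, SE 0.047, adjusted p = 4.65e-14). Its mean was 183.7 ± 7.0 CPM in shLuc and 417 ± 14 CPM in shKDM6B (SD, n = 3 each), a rise of 2.27-fold, with the groups far apart. It ranked 96 by size among the 2783 genes that rose, and 6 by p over all genes. RRP1, the other human relative of yeast Rrp1, had 227, 217 and 195 CPM in shLuc and 242, 229 and 218 CPM in shKDM6B and did not pass (log2 fold change 0.11, 95% interval 0.000 to 0.22, adjusted p = 0.106). It passed without shLuc 1 (adjusted p = 0.0239) and without shKDM6B 3 (adjusted p = 0.0385). Per kilobase of exon, RRP1B stood at 0.573, 0.632 and 0.718 of the level of RRP1 in shLuc and at 1.31, 1.36 and 1.36 of it in shKDM6B. The order of the pair was thus turned in every knockdown library.

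Both genes lie on chromosome 21 in GENCODE 29 (GRCh38), RRP1B at chr21:43659548-43696079 and RRP1 at chr21:43789513-43805293, both on the plus strand and sharing no exon bases with another gene. Among the tested genes in chromosome order, the neighbours on either side of RRP1B were HSF2BP (log2 fold change 0.10, SE 0.298, adjusted p = 0.835) and PDXK (log2 fold change 0.02, SE 0.0469, adjusted p = 0.764). HSF2BP was low, with means of 1.38 and 1.5 CPM. CSTB between PDXK and RRP1, and AGPAT3 beyond RRP1, did not pass (log2 fold changes -0.03 and 0.05, adjusted p = 0.672 and 0.437). CBS, an enzyme of cysteine synthesis 4 tested genes before RRP1B, was higher, from 14.4 to 28.2 CPM (log2 fold change 0.98, SE 0.0954, adjusted p = 3.46e-08). The 2 tested genes after CBS were U2AF1 (log2 fold change -0.14, adjusted p = 0.025) and SIK1 (log2 fold change 0.13, adjusted p = 0.0171). Each lost its call by DESeq2 (adjusted p = 0.110 and 0.106), with sparse-gene scaling (adjusted p = 0.379 and 0.0587) and without any one of 4 libraries. For U2AF1 these were shLuc 1 and 3 and shKDM6B 1 and 3 (adjusted p = 0.0867, 0.0746, 0.0534 and 0.116). For SIK1 they were shLuc 2 and 3 and shKDM6B 2 and 3 (adjusted p = 0.0587, 0.0698, 0.0614 and 0.0515). These neighbours were looked at after the value of RRP1B had been seen.

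**Figure D3:**
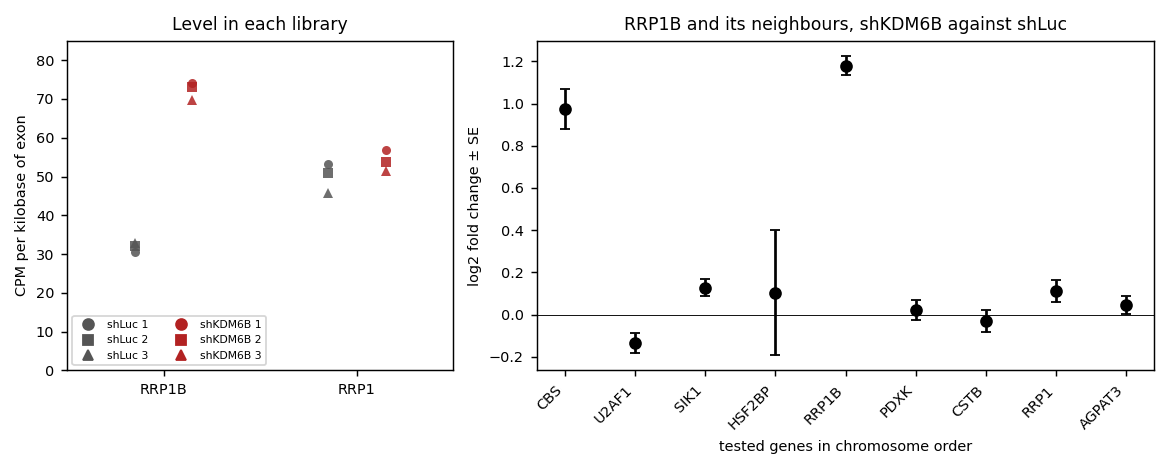
Left, CPM per kilobase of exon of RRP1B and RRP1 in each library (grey shLuc, red shKDM6B, symbols by replicate); RRP1B lies below RRP1 in all 3 shLuc libraries and above it in all 3 shKDM6B libraries. Right, log2 fold changes of shKDM6B against shLuc with SE for RRP1B and the 4 tested genes on either side, equally spaced in chromosome order, with RRP1B and CBS near 1 and the others between -0.14 and 0.13.

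The other rises in large subunit assembly were small. WDR12, which with PES1 and BOP1 forms the PeBoW complex of large subunit maturation, had 113, 111 and 115 CPM in shLuc and 131, 129 and 133 CPM in shKDM6B (log2 fold change 0.21, SE 0.042, adjusted p = 0.000393), with every knockdown value above every control. Its partners did not pass. PES1 had 235, 227 and 218 CPM in shLuc and 251, 247 and 229 CPM in shKDM6B (log2 fold change 0.10, 95% interval -0.003 to 0.19, adjusted p = 0.117; 0.0262 without shKDM6B 3). BOP1 had 41.5, 38.1 and 35 CPM in shLuc and 43.4, 42.4 and 39.6 CPM in shKDM6B (log2 fold change 0.13, 95% interval -0.011 to 0.28, adjusted p = 0.139). In both partners the groups overlapped, and whether the 3 genes differ from each other was not tested. NPM1, which encodes the nucleolar scaffold nucleophosmin, had 87.5, 76.7 and 81.2 CPM in shLuc and 97.7, 97.4 and 87.8 CPM in shKDM6B (log2 fold change 0.21, SE 0.055, adjusted p = 0.00447). The nearest values of the 2 groups were 87.5 and 87.8 CPM, and the call was lost without shLuc 2 (adjusted p = 0.0566) or without the 3 libraries with the most KRT5 (adjusted p = 0.117). NPM1 has many processed copies in the genome: 45 NPM1 pseudogene symbols held 63 to 94 counts per library in sum, beside 637 to 870 for NPM1. How reads that fit several copies were counted is not given, so its level is uncertain. NOP2, a methyltransferase of the large subunit RNA, had 210.2, 209 and 201 CPM in shLuc and 228, 229 and 226 CPM in shKDM6B (log2 fold change 0.14, SE 0.042, adjusted p = 0.0114). Its groups did not overlap. An unnamed gene model shares 54.4% of its exon bases, and the call was lost with sparse-gene scaling (log2 fold change 0.18, SE 0.082, adjusted p = 0.0728), without shLuc 3 (adjusted p = 0.0844) and without shKDM6B 2 (adjusted p = 0.0621).

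The remaining members of the large subunit group did not pass. GNL2, a nucleolar GTPase, had 171, 164 and 165 CPM in shLuc and 179, 179 and 174 CPM in shKDM6B (log2 fold change 0.087, 95% interval 0.001 to 0.17, adjusted p = 0.103). NOC3L, a factor of early large subunit precursors, had 92, 89.9 and 93.2 CPM in shLuc and 95.5, 100 and 99.7 CPM in shKDM6B (log2 fold change 0.10, 95% interval 0.010 to 0.20, adjusted p = 0.0729). In both the knockdown values lay wholly above the controls. NOC2L, the partner of NOC3L, had 231, 214 and 202 CPM in shLuc and 238, 233 and 223 CPM in shKDM6B (log2 fold change 0.10, 95% interval -0.003 to 0.20, adjusted p = 0.117) with overlap, and it passed without shLuc 1 (adjusted p = 0.0197). GNL3, the GTPase nucleostemin, had 223, 205 and 209.8 CPM in shLuc and 218, 215 and 198 CPM in shKDM6B (log2 fold change -0.017, 95% interval -0.12 to 0.081, adjusted p = 0.807). RRS1, which helps to bring a ribosomal RNA particle into the precursor, had 97.4, 92 and 89.7 CPM in shLuc and 103, 97.4 and 96.6 CPM in shKDM6B (log2 fold change 0.092, 95% interval -0.007 to 0.19, adjusted p = 0.133). These 2 had the highest levels per kilobase of the group's genes that did not pass, 64.1 and 54.5 CPM per kilobase in shLuc, and their groups overlapped. PPAN and NOP16 overlapped too, with log2 fold changes of 0.11 and -0.018. PPAN had 178 to 254 counts per library and the widest interval of any member (-0.06 to 0.28); 59.8% of its exon bases are shared, mostly with its readthrough gene, which was listed at 0 counts. Without the 3 libraries with the most KRT5, 3 of the 14 genes were higher and 0 lower.

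Of the 7 snoRNP genes, 0 passed by edgeR, 0 by DESeq2, and 0 had an unadjusted p under 0.05 in the main test. By edgeR 39.1% of all genes passed, and by DESeq2 13.0% were higher and 11.3% lower. The median log2 fold change was 0.024. With log2 of the library total as a covariate 3 were higher, NOP58, DKC1 and NOLC1, where 22.0% of all genes were higher. With the replicate number as a block 1 was higher, DKC1, where 22.9% of all genes were higher. NOLC1, the nucleolar phosphoprotein that escorts snoRNPs, had the highest level per kilobase of all 42 members, 103.7 CPM per kilobase in shLuc and 107.7 in shKDM6B. Its values were 434, 404 and 398 CPM in shLuc and 445, 433 and 405 CPM in shKDM6B (log2 fold change 0.055, 95% interval -0.049 to 0.16, adjusted p = 0.414). FBL, the methyltransferase fibrillarin of box C/D snoRNPs, had 177, 155 and 152 CPM in shLuc and 173, 166 and 148 CPM in shKDM6B (log2 fold change 0.009, 95% interval -0.11 to 0.13, adjusted p = 0.926). In both genes the groups overlapped, and within shKDM6B the value of replicate 3, the deepest library, was the lowest. The intervals of the 7 genes reached from -0.13 at the lowest to 0.18 at the highest on the log2 scale. Their log2 fold changes were 0.073 for NOP58 and -0.010 for NOP56, the scaffold proteins of box C/D snoRNPs. In the box H/ACA snoRNPs they were 0.090 for the pseudouridine synthase DKC1, 0.022 for NHP2 and 0.024 for GAR1. DKC1 passed without shKDM6B 3 (adjusted p = 0.0499). Of the exon bases of NHP2, 27.4% are shared with RMND5B on the other strand. Without the 3 libraries with the most KRT5, 0 of the 7 were higher or lower.

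Summed over members, all 42 together took 7526, 7264 and 7164 CPM in shLuc and 8264, 8199 and 7821 CPM in shKDM6B, an 11% higher mean, or 7.6% without RRP1B. The means were 8.6% higher for polymerase I genes, 11% for the processome and 2.9% for snoRNPs. For large subunit assembly the mean was 18% higher with RRP1B and 7.1% higher without it. A sum weighs the abundant members most, and the order of the groups by sum was not that by median log2 fold change. Whether the 4 groups differ from each other was not tested.

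The counts of many members grew less than the library total. Totals rose with the replicate number in both groups, so the order of depth is also that of replicates 1 to 3. A fall with depth and a fall with replicate order cannot be told apart here. In 12 of the 42 members CPM fell from library to library as the total rose, within shLuc and within shKDM6B, against 8.30% of all tested genes, and it rose in both for 0 members. Members are dense in reads: 21 had 0.3 or more counts per base of exon, 10 of the 12 were among these, and of all 1603 genes from 0.3 to 1 count per base 42.5% fell likewise. NCL is the clearest case, falling in the order of depth from 538 to 463 CPM in shLuc and from 522 to 438 CPM in shKDM6B; the chi-square of its counts per degree of freedom was 29 and 35.5 in the 2 groups, where counting noise alone gives a value near 1. With log2 of the library total as a covariate, 28 members were higher and 2 lower (22.0% of genes higher): 8 of the polymerase I group, 7 of the processome, 10 of large subunit assembly and 3 of the snoRNPs. With sparse-gene scaling, which took TMM factors from 3380 genes under 0.03 counts per base, 14 were higher and 0 lower, where 21.3% of genes were higher and 13.8% lower. The numbers higher by group were then 5, 6, 3 and 0. The members' log2 fold changes lay further above 0 under this scaling, with a median of 0.16 and 40 of 42 above 0, against 0.11 and 35 in the main test; their SEs were 0.068 to 0.099, against 0.041 to 0.081. The median of all genes moved from -0.005 to 0.037. RRP9 and MYBBP1A were the members among the 12 that rose. RRP9 fell with depth from 90.9 to 88.9 CPM in shLuc and from 129.1 to 116.4 CPM in shKDM6B, a smaller fall than the distance between its groups. MYBBP1A fell from 455.8 to 420.1 CPM in shLuc and from 497.9 to 465.3 CPM in shKDM6B, with group means of 435.1 and 483.2 CPM. POLR1E followed the order of depth in neither group. The part of depth in the differences between groups was not tested.

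**Figure D4:**
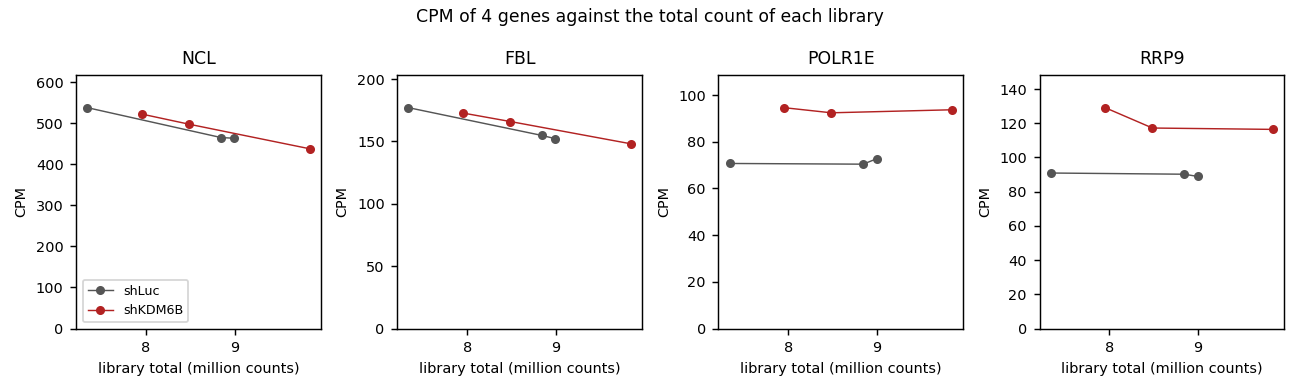
CPM of NCL, FBL, POLR1E and RRP9 against the total count of each library, 1 point per library, joined in order of total within shLuc (grey) and shKDM6B (red). In both groups this is also the order of the replicate numbers. NCL and FBL fall with depth along nearly 1 line in both groups, while the red points of POLR1E and RRP9 lie above all grey ones; RRP9 also falls with depth within each group.

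Genes of the same pathway outside the 42 were also more often higher than lower. The share higher was well above that of all genes in the processome and large subunit lists. It was nearer to that share, or below it, in the other lists. Over 5 further lists, 145 of 146 genes were tested; 63 were higher (43.4%, against 20.1% of all genes), 5 lower and 77 not past the threshold, with a median log2 fold change of 0.096. Without the 3 libraries with the most KRT5, 40 were higher and 3 lower, and without shKDM6B 3 alone 3 were lower. In the list of further polymerase I genes, 5 of 20 were higher (25.0%, against 20.1% of all genes) and 2 lower, with a median log2 fold change of 0.026. The 3 with the smallest p were BAZ2A, part of a complex that silences ribosomal DNA (log2 fold change -0.72, SE 0.045, adjusted p = 5.18e-11), the initiation factor RRN3 (0.51, SE 0.050, adjusted p = 4.17e-08) and the subunit POLR1F (-0.44, SE 0.051, adjusted p = 4.49e-07), which is listed under its older symbol TWISTNB. POLR1F binds RRN3 in the initiating enzyme, and the 2 differed in opposite directions. POLR1G, the partner of POLR1E in its heterodimer and named after its value was seen, was higher like POLR1E (log2 fold change 0.35, SE 0.078, adjusted p = 0.00117).

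Of 47 further processome genes 29 were higher (61.7%, against 20.1% of all genes) and 1 lower, the helicase DDX49 (log2 fold change -0.62, SE 0.044, adjusted p = 3.12e-10). WDR3, a component of the UtpB complex (0.39, SE 0.044, adjusted p = 3.48e-07), and the helicase DDX10 (0.45, SE 0.051, adjusted p = 3.65e-07) were among those that rose. Of 50 tested large subunit genes 23 were higher (46.0%) and 0 lower. By p they were led by the helicases DDX24 (log2 fold change 0.30) and DDX51 (0.30) and by URB2 (0.31), with adjusted p = 5.05e-06, 5.38e-06 and 6.65e-06. Of 14 further snoRNP genes 2 were higher (14.3%, below the 20.1% of all genes) and 1 was lower. The 2 were the assembly factors NAF1 (log2 fold change 0.37, adjusted p = 5.48e-05) and NUFIP1 (0.33, adjusted p = 0.00309). PIH1D1 was lower (-0.13, adjusted p = 0.0221). NUFIP1 did not pass by DESeq2 (adjusted p = 0.0520) or without the 3 libraries with the most KRT5 (adjusted p = 0.113). PIH1D1 lost its call by DESeq2, with sparse-gene scaling and without the 3 libraries with the most KRT5 (adjusted p = 0.155, 0.338 and 0.243), and also without shLuc 1, shKDM6B 2 or shKDM6B 3 (adjusted p = 0.0847, 0.117 and 0.0542). The core proteins NOP10 of box H/ACA (log2 fold change 0.033) and SNU13 of box C/D (0.059) did not pass, like the 7 snoRNP members. Of 14 genes of the RNA exosome, which trims the precursor RNA, 4 were higher and 1 lower, 28.6% higher against 20.1% of all genes. EXOSC5 (log2 fold change 0.28), EXOSC4 (0.23) and EXOSC7 (0.18) had the smallest p, with adjusted p = 0.000121, 0.00863 and 0.0145. Both EXOSC4 and EXOSC7 lost their calls by DESeq2 (adjusted p = 0.0936 and 0.151), and EXOSC7 also without the 3 libraries with the most KRT5 (adjusted p = 0.149). EXOSC4 was lost without shKDM6B 1 (adjusted p = 0.0502), and EXOSC7 without shLuc 2 or shKDM6B 2 (adjusted p = 0.0845 and 0.0567).

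The other nuclear polymerases are given for comparison. Of 13 RNA polymerase III genes 4 were higher (30.8%) and 2 lower, and of 8 RNA polymerase II genes 2 were higher (25.0%) and 2 lower, where 20.1% of all genes were higher and 18.9% lower. POLR3G, a subunit typical of proliferating and pluripotent cells, rose by 0.71 on the log2 scale (SE 0.087, adjusted p = 1.01e-06) and POLR3B by 0.37 (adjusted p = 3.96e-06), while POLR3K fell by 0.40 (adjusted p = 3.36e-05). POLR2A, the largest subunit of RNA polymerase II, fell by 0.56 on the log2 scale (SE 0.046, adjusted p = 2.17e-09), and POLR2C (0.21, adjusted p = 0.000729) and POLR2M (-0.37, adjusted p = 0.00191) followed by p. Neither of these 2 passed without the 3 libraries with the most KRT5 (adjusted p = 0.121 and 0.120). The largest subunits of the polymerases thus differed in opposite directions, POLR1A higher and POLR2A lower, each past the threshold, while POLR3A had a log2 fold change of 0.062 (adjusted p = 0.315). Of the 5 small subunits that all these enzymes share, which are in the list of further polymerase I genes and were grouped after their values were seen, POLR2K was higher (log2 fold change 0.54, SE 0.076, adjusted p = 5.50e-06), as was POLR2F near the threshold (0.14, adjusted p = 0.0441). POLR2E, POLR2H and POLR2L did not pass, with log2 fold changes of -0.087, 0.11 and 0.024.

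**Figure D5:**
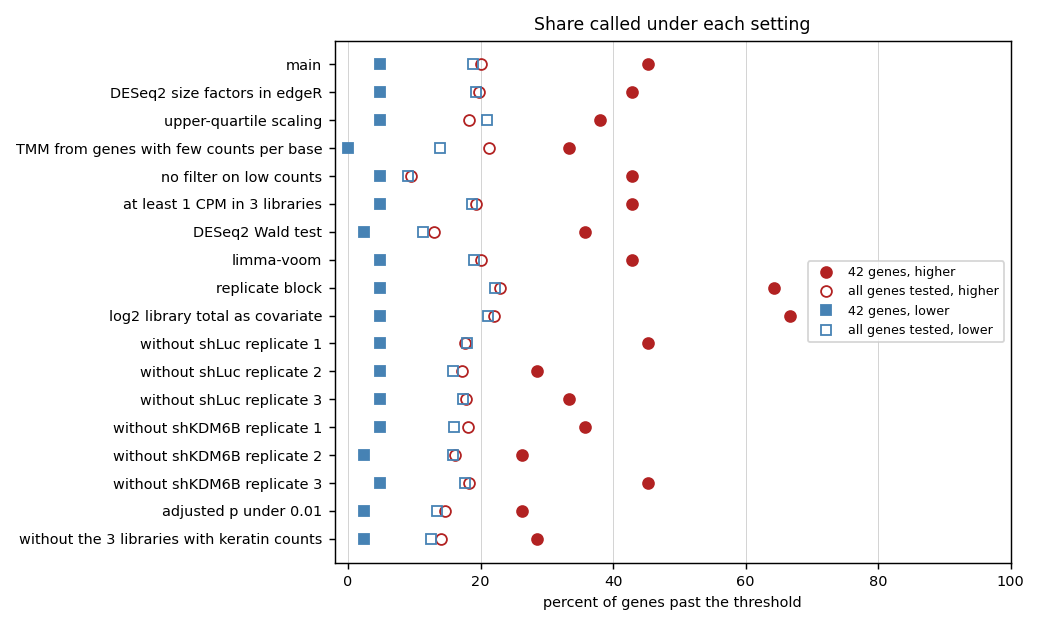
Percent of genes past the threshold as higher (red circles) or lower (blue squares) in shKDM6B under each setting, filled for the 42 genes and open for all genes tested. The filled red circle lies to the right of the open one in every setting, from 26.2 to 66.7 percent, and the filled blue square lies to the left of the open one in every setting.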

How the data were processed

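The authors deposited raw counts per gene symbol for each of the 6 libraries (3 shLuc, 3 shKDM6B). Per the labels' protocols, total RNA was treated with DNase and made into libraries with the NEBNext Ultra RNA kit, whose name does not mark it as stranded, so reads of antisense or overlapping genes cannot be told apart. The tools named in the submitters' processing notes are STAR, featureCounts and DESeq, with the builds GRCh37 and hg19; for tool versions, annotation, strand setting and reads with several matches, the entry is "not given in the sources used here". A deposited table of normalized values was not used. From each file, 1 line without a count was left out.

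The counts were tested in R 4.3.3 with edgeR 4.0.16: filterByExpr by group, TMM, and a quasi-likelihood test of the group alone, with Benjamini-Hochberg adjustment over 13839 genes and a threshold of 0.05. CPM values are TMM-scaled, and each SE is back-calculated from the test statistic. Exon lengths and overlaps come from GENCODE 29 by symbol, and older symbols were matched through RefSeq synonyms. Promoters come from RefSeq (GRCh38.p14). The script was tested on simulated counts. Within groups, pairs of libraries differed slightly beyond counting noise over genes with few counts per base (chi-square per degree of freedom 1.08 to 1.32), and each library counted as 1 sample. Total counts per library were 7338393 to 9848351, and SEs on the log2 scale were 0.041 to 0.081 for the 42 genes.

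Alternatives were, in edgeR, upper-quartile scaling, DESeq2's size factors and TMM factors from genes under 0.03 counts per base; no low-count filter, or at least 1 CPM in 3 libraries; limma-voom (limma 3.58.1); DESeq2 1.42.0 (Wald test); the replicate number as a block, log2 of the library total as a covariate, each library left out in turn, and an adjusted p under 0.01. Leaving out shLuc replicate 1 and shKDM6B replicates 1 and 2, the libraries with the most KRT5, was added after seeing the data. Members and lists were chosen with earlier results of these data known. Members past the threshold were given in full. Of the others, the 2 of each group with the highest level per length and those without overlap between groups were given with values, and of each further list the 3 past the threshold with the smallest p were named. RRP1, PES1, BOP1 and NOC2L were added as partners of such genes after their values were seen.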

Additional observations from a re-analysis of the deposited data

How the results depend on the processing

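The numbers of members higher (19) and lower (2) in shKDM6B kept their order in every setting, but not their size. With 1 library left out, between 11 and 19 members were higher (12 without shLuc replicate 2, 11 without shKDM6B replicate 2) and between 1 and 2 lower (1 without shKDM6B replicate 2). Members higher numbered 11 at an adjusted p under 0.01 and 12 without the 3 libraries with the most KRT5 counts, where the lone shKDM6B library was assumed to vary like the others. Members lower numbered 0 with sparse-gene scaling, and 1 by DESeq2, at an adjusted p under 0.01 and without the libraries with KRT5. Genes past the threshold numbered 3421 by DESeq2 against 5405. Of the 145 further genes of the pathway, 40 were higher without the libraries with KRT5, and 3 lower without them, by DESeq2, at an adjusted p under 0.01 and with sparse-gene scaling; leaving out 1 library gave 50 to 66 higher and 3 to 5 lower. That scaling moved the share of higher calls among all genes from 51.5% to 60.6%. Where a value moved, the cause was not tested.

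The replicate block gave 27 members higher and 2 lower, with 6218 genes past the threshold. The labels give same-numbered libraries only a number in common. The correlations of their deviations were 0.116, -0.077 and 0.152, and shLuc replicate 2 did not correlate best with its own number. Replicates 1 and 3 did, and their crossed pairs were at -0.179 (shLuc 1 with shKDM6B 3) and -0.157 (shLuc 3 with shKDM6B 1). Whether same-numbered libraries share a batch was not tested.

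Members not past the threshold changed sign in some settings, and none of those values passed; with 1 library left out the log2 fold changes ran as follows. NCL ran from -0.062 to 0.065, GNL3 from -0.045 to 0.028, NOP56 from -0.038 to 0.028, BYSL from -0.055 to 0.019 and NOP16 from -0.040 to 0.007. FBL ran from -0.036 to 0.076, NHP2 from -0.034 to 0.094, GAR1 from -0.027 to 0.056 and the further gene NOL11 from -0.012 to 0.057. With sparse-gene scaling NCL turned to 0.035, GNL3 to 0.027, NOP56 to 0.033, BYSL to 0.023 and NOP16 to 0.026. With the library total as covariate NCL turned to 0.040, GNL3 to 0.008 and NOP56 to 0.014, and with upper-quartile scaling FBL turned to -0.010. Without the libraries with KRT5, BYSL stood at 0.007, FBL at -0.051, NHP2 at -0.046 and GAR1 at -0.037. With 3 libraries per group and SEs of 0.041 or more, changes of a few percent would not pass. The SE did not follow depth alone: NCL, with 3916 to 4334 counts per library, had an SE of 0.063, and POLR1B, with 1181 to 1825, an SE of 0.042. NOLC1 passed once the library total was a covariate, with a log2 difference of 0.081 and a SE of 0.023 (adjusted p = 0.00875).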
